A study of Caenorhabditis elegans with 18 samples.

Results

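The steady-state transcriptome of larvae carrying hsf-1(sy441) was compared with that of wild-type larvae at 20 °C, using 6 of the 18 RNA-seq libraries of the study, chosen by their strain and temperature labels. The 3 mutant libraries came from strain PS3551, genotype hsf-1(sy441). Another 3 libraries at 20 °C, from strain AM1062, are given beside them: these larvae carry unc-119(ed9) on chromosome III and the same hsf-1(sy441) allele on chromosome I, together with the integrated transgene rmSi1[hsf-1::gfp] on chromosome II. The 3 wild-type libraries came from N2. The remaining 9 libraries are the same 3 strains after a heat shock of 30 min in a water bath at 34 °C. All were whole animals, synchronised by hypochlorite treatment, grown at 20 °C on plates of OP50 bacteria to the middle of the second larval stage, and profiled as polyA RNA. The labels number the replicates without saying whether they were separate cultures, so the p-values measure the spread between libraries. They give no batch or date either, and a batch shared by all libraries of a strain cannot be told apart from the strain.

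Heat shock factor 1, the product of hsf-1, is the transcription factor that switches on chaperone genes when proteins unfold. In unstressed animals it is also bound at a smaller set of genes, and C. elegans needs it for larval development and normal lifespan. The sy441 allele carries a premature stop codon that truncates the activation domain, and mutants respond poorly to heat. A truncated factor can still bind DNA, so a mutant of this kind is not a deletion.

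The depth was 33.0, 28.8 and 28.3 M fragments in the mutant libraries and 25.3, 28.7 and 19.9 M in the N2 libraries. Of 14219 genes tested with edgeR's quasi-likelihood test, 2969 or 20.9% differed at a Benjamini-Hochberg adjusted p below 0.05, which is what "called" means here. Of these, 1340 (9.42%) rose and 1629 (11.5%) fell in hsf-1(sy441). The median log2 fold change was 0.96 among the rises and −0.70 among the falls, against 0.00 over all genes. The split between rises and falls depends on scaling. Library totals alone, in place of TMM factors, moved the median of all genes up by 0.20 on the log2 scale and gave 2788 rises and 890 falls, that is 75.8% rises against 45.1%, while upper-quartile factors gave 58.6% rises. In the deposited comparison of the authors, 2684 genes were marked as differing, 1415 of them higher and 1269 lower in the mutant.

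N2 replicate 3 stood apart from the other 2 N2 libraries. On the first principal component of the 6 libraries, which held 78.1% of the variance, the mutant libraries lay at −35.8, −49.4 and −66.1 and the N2 libraries at 64.6, 81.6 and 5.1. It was the lowest of the N2 libraries for 75.3% of the genes that fell, against 39.5% of all genes. A cuticle and molting score, the mean log2 level of 205 genes of the cuticle collagen, molting and hedgehog-related lists, was 3.02, 3.02 and 2.86 in the mutant libraries and 3.58, 3.99 and 2.94 in the N2 libraries, so that N2 replicate 3 lay inside the mutant range. Replicate 3 had the lowest score in every other group of strain and temperature too. The scores were 3.90, 3.78 and 3.47 in the transgene strain at 20 °C and 3.78, 4.23 and 3.34 in N2 at 34 °C. The part that stage within the molting cycle plays in the differences was not tested. The number of calls depended on single libraries: it was 1687, 1243 and 878 without mutant replicates 1, 2 and 3, and 1042, 970 and 3415 without N2 replicates 1, 2 and 3. For this reason a stricter set is used beside the calls. It holds the 595 genes (4.18%) that were called the same way under each of 18 alternative settings in which they could be tested, among them the omission of each library in turn and the score as a covariate. They comprise 452 rises (3.18%) and 143 falls (1.01%), with median log2 fold changes of 1.32 and −1.04. The excess of rises depends on the settings chosen. Of the 1340 rises and 1629 falls, library totals alone kept 1340 and 889. The limma test on log2(FPKM + 0.1) kept 1047 and 456. The smaller number of falls in the set is therefore no measure of their stability. This set was defined after the values had been seen, and is called the stable set. Genes that make up the score, or follow it, can lose their call through that covariate alone. For such genes, absence from the set is no measure of stability.

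**Figure D1:**
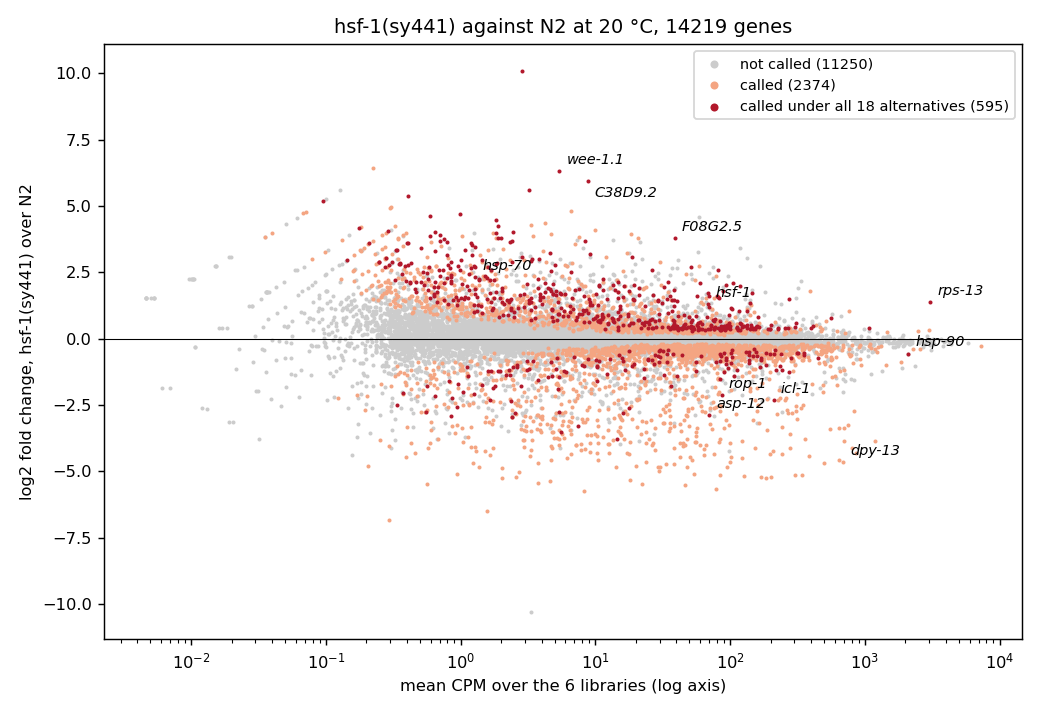
Mean level over the 6 libraries (CPM, TMM-scaled counts, log axis) against the log2 fold change of hsf-1(sy441) over N2 at 20 °C, each point 1 of 14219 genes. Dark points are the 595 genes of the stable set and light points the other called genes. Many of the largest falls are called only under some of the settings.

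The mutant gene itself was more abundant in the mutant. The hsf-1 transcript (Y53C10A.12, chromosome I, 11953502 to 11961977, ce10) had 92.9, 98.3 and 103 CPM in hsf-1(sy441), 104, 106 and 115 CPM in the transgene strain, and 37.9, 42.0 and 38.5 CPM in N2. The groups did not overlap, and the rise of 1.31 on the log2 scale (SE 0.09, adjusted p = 4.1e-07) held under all 18 alternatives. At 34 °C the same contrast gave 1.45. Counts in the transgene strain may combine the resident gene and the transgene. The sy441 lesion lies within the counted gene and does not remove it, so the level of hsf-1 does not check the genotype labels.

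Genes next to hsf-1 rose with it. Over a stretch of chromosome I from 11891590 to 12188998 (297409 bp, ce10) 31 of the 41 genes tested rose and the other 10 were not called, against 9.42% rises over all genes. Among the 31 of these genes that averaged at least 3 CPM, 28 rose, and for 29 every mutant library lay above every N2 library, against 23.8% of all genes. Their median log2 fold change was 1.60, a 3.03-fold difference, with quartiles at 1.40 and 1.84. In the 10 genes on either side the medians of those of at least 3 CPM were −0.13 and 0.04. The stretch was picked out after the values had been seen and no test was made of it. A running median over 15 neighbouring genes of at least 3 CPM peaked at 1.84 inside it and reached no more than 0.75 in the 10642 windows elsewhere in the genome.

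The genes of the stretch have varied known roles. For hda-3, a class I histone deacetylase gene, the levels were 101, 108 and 107 CPM in hsf-1(sy441), 75.9, 70.0 and 75.7 CPM in the transgene strain, and 31.9, 33.6 and 30.9 CPM in N2. Its rise of 1.71 on the log2 scale (SE 0.06, adjusted p = 6.2e-10) had the smallest p-value of the genes named here. The groups were fully separated, with the transgene strain in between. The actin regulator gene wve-1 showed the same order, with 81.2, 93.6 and 82.7 CPM in the mutant, 50.0, 51.8 and 52.4 CPM in the transgene strain, and 27.2, 29.0 and 27.6 CPM in N2. Farnesyl diphosphate synthase (fdps-1), a subunit of the translation factor eIF2B (eif-2Bbeta), the Ras pathway scaffold ksr-2 and the RNA-dependent RNA polymerase family member rrf-2 rose by 1.51, 1.60, 1.57 and 2.01. The pair ubc-12 and mag-1, which encode the NEDD8-conjugating enzyme and a core exon junction protein, rose by 1.55 and 1.48 but were counted within a shared locus. Not every gene of the stretch followed. The RNA-binding protein genes rbm-3.1 and hrpr-1 differed by 0.20 (adjusted p = 0.45, not called) and 0.66 (adjusted p = 3.5e-04), and R06C1.4 by 0.07 (adjusted p = 0.75).

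Larvae with the transgene, which carry the same allele, were also above N2 over the stretch, with a median log2 difference of 1.01, a 2.01-fold difference. The mutant exceeded the transgene strain by a median of 0.60, a 1.51-fold difference. These 3 contrasts share libraries. In the separate libraries at 34 °C the median of the stretch was again 1.60 in hsf-1(sy441) over N2. Without N2 replicate 3 it was 1.61, and with the score as a covariate 1.58. DNA copy number was not measured, and the part that the genomic background of the strain plays was not tested.

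**Figure D2:**
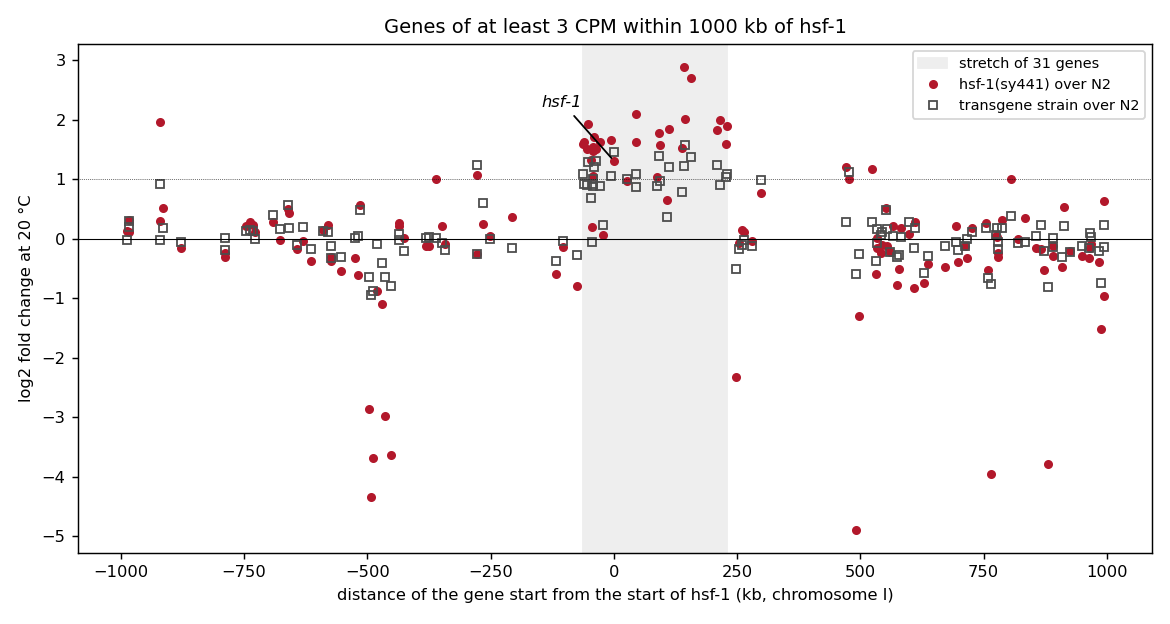
Log2 fold change at 20 °C against distance from hsf-1 (kb) for genes of at least 3 CPM within the plotted window, with filled circles for hsf-1(sy441) over N2 and open squares for the transgene strain over N2. Inside the shaded stretch the circles have a median of 1.60 and the squares of 1.01, while the 10 genes on either side have medians near 0.

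Most chaperone genes gave no call, while hsp-90 and a few of its partners were lower in the mutant and the inducible gene hsp-70 was higher. Among 18 constitutively expressed cytosolic chaperones and cochaperones, 4 fell (22.2% against 11.5% of all genes) and 14 were not called, with a median log2 fold change of −0.17, which becomes 0.03 when only library totals are used for scaling. The 4 that fell are HSP90 and 3 of its partners or J proteins. Levels of hsp-90, the sole cytosolic HSP90 gene, were 1686, 1668 and 1690 CPM in hsf-1(sy441), 2641, 2686 and 2609 CPM in the transgene strain, and 2478, 2333 and 2645 CPM in N2. The mutant libraries lay below all others, by 0.56 on the log2 scale against N2 (log2 fold change −0.56, SE 0.06, adjusted p = 5.5e-05). Levels of the transgene strain were close to those of N2 (log2 difference 0.09, adjusted p = 0.65).

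The HSP90-binding immunophilin gene fkb-6 had 115, 122 and 108 CPM in hsf-1(sy441) and 179, 165 and 201 CPM in N2 (log2 fold change −0.66, adjusted p = 3.8e-04). A J-domain cochaperone of HSP70, dnj-13, had 174, 174 and 161 CPM in the mutant and 234, 221 and 304 CPM in N2 (log2 fold change −0.58, adjusted p = 0.0048), within a locus shared by 5 genes. Neither gene's groups overlapped, and both genes, with hsp-90, belong to the stable set. The HSP70-HSP90 adaptor sti-1 fell by 0.46 on the log2 scale (adjusted p = 0.037), a call lost under 9 of the 18 alternatives. Abundant HSP70 machinery gave no call. The constitutive cytosolic HSP70 gene hsp-1 had 2983, 3223 and 2741 CPM in the mutant and 2728, 2586 and 2970 CPM in N2, with overlapping groups (log2 fold change 0.11, adjusted p = 0.45). The nucleotide exchange factor gene hsp-110 had 438, 428 and 428 CPM in the mutant and 390, 360 and 393 CPM in N2 (log2 fold change 0.18, adjusted p = 0.099). In the CCT chaperonin and prefoldin list 1 of 13 genes (7.7%, against 11.5% of all genes), cct-6, fell, and that call was lost under 11 alternatives.

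Of 9 genes listed as heat-inducible, 4 had failed estimates in the deposited tables and 4 were tested, of which 1 rose. This was hsp-70 (C12C8.1), a stress-inducible HSP70 that is nearly silent in unstressed worms. It had 2.34, 1.68 and 2.37 CPM in hsf-1(sy441), 0.685, 0.686 and 1.28 CPM in the transgene strain, and 0.335, 0.364 and 0.594 CPM in N2. The mutant was 4.98-fold above N2 (log2 fold change 2.32, SE 0.28, adjusted p = 9.1e-05), with no overlap, and the call held under every alternative that tested the gene. The paired genes hsp-16.2 and hsp-16.41, small heat shock proteins counted within a shared locus, had 1.25, 0.886 and 1.43 CPM and 1.81, 1.83 and 2.10 CPM in the mutant and 0.335, 0.255 and 1.49 CPM and 0.251, 0.328 and 1.09 CPM in N2. For hsp-16.2 the groups overlapped and neither gene was called (adjusted p = 0.62 and 0.38). The remaining tested gene, hsp-16.48, had 1 fragment in the 6 libraries, in N2 replicate 2. Summed over the 4 tested genes the level was 1.5, 1.7 and 71.7 CPM in the transgene strain at 20 °C. Transgene replicate 3 thus stood far above the other libraries, and hsp-70 made up 1.28 CPM of its sum. The sums were 4.4 to 5.9 CPM in the mutant and 0.9 to 3.2 CPM in N2. The cause was not tested. In a list of other small heat shock proteins, 2 of 10 genes rose (20.0%, against 9.42% of all genes). Of these, hsp-17 had 92.0, 94.5 and 94.0 CPM in the mutant and 49.1, 54.1 and 68.2 CPM in N2 (log2 fold change 0.71, adjusted p = 0.0051), and hsp-43 rose by 1.29 (adjusted p = 0.03), a call lost under 5 alternatives.

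Differences in the chaperone lists were wider after heat shock. After 30 min at 34 °C, 4124 genes (29.0%) were called between hsf-1(sy441) and N2, of which 2111 (14.8%) rose and 2013 (14.2%) fell. Fitted without the other 12 libraries the number was 971. In the constitutive chaperone list 1 rose and 11 fell, and in the inducible list 3 of 4 fell. For hsp-70 the mean was 64.7 ± 8.85 CPM in heat-shocked mutants and 1171 ± 229 CPM in heat-shocked N2 (SD, n = 3 each), a log2 fold change of −4.18, opposite in sign to that at 20 °C. For hsp-110 it was 666 ± 28.1 CPM in heat-shocked mutants and 5734 ± 450 CPM in heat-shocked N2, and the log2 fold change was −3.11. The contrast of hsp-90 was −1.61 at 34 °C against −0.56 at 20 °C, that of dnj-13 −2.82 against −0.58, while fkb-6 gave −0.70 and −0.66.

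**Figure D3:**
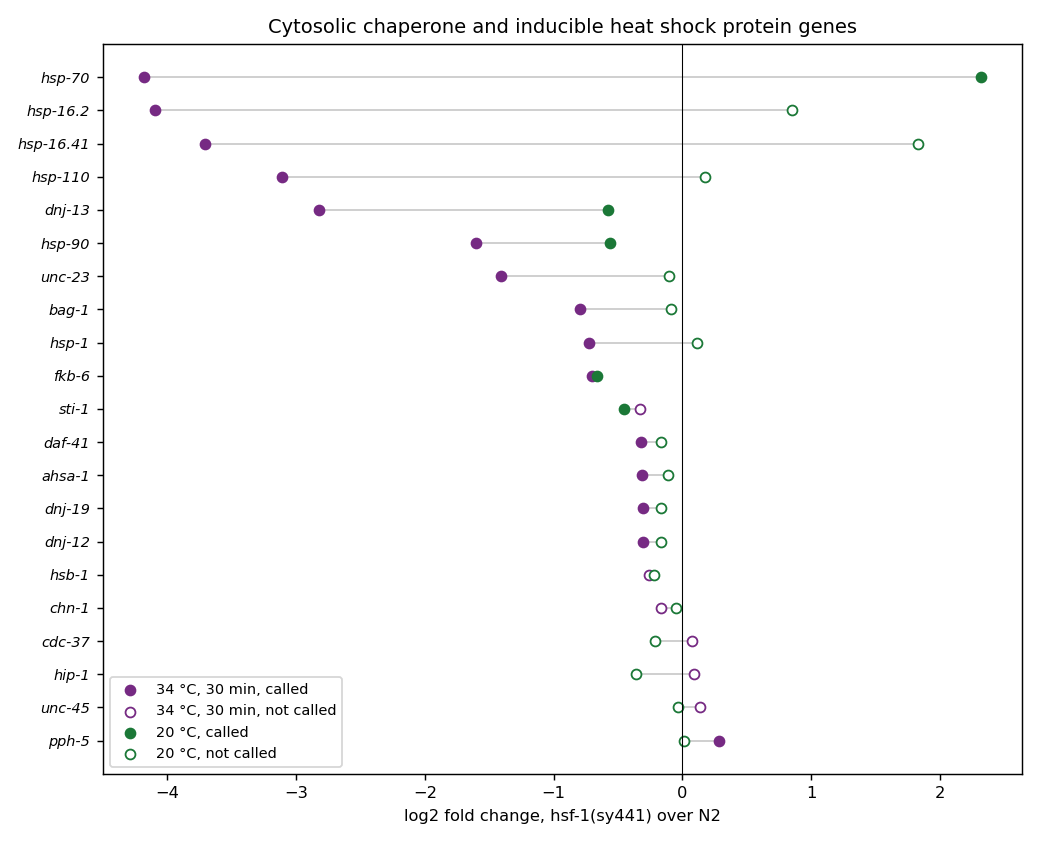
Log2 fold change of hsf-1(sy441) over N2 for the tested cytosolic chaperone and inducible heat shock protein genes after 30 min at 34 °C (purple) and at 20 °C (green), filled where called. The gene hsp-16.48, with 1 fragment at 20 °C, is not drawn. At 34 °C hsp-70 lies at −4.18 and at 20 °C at 2.32, and hsp-90, fkb-6, dnj-13 and sti-1 are called below 0 at 20 °C.

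Folding genes of other compartments were lower where they changed. In the endoplasmic reticulum list 8 of 18 fell (44.4%, against 11.5% of all genes) and 10 were not called, with a median of −0.40. The falls numbered 3 with library totals and 2 to 7 when a library was left out, fewest without mutant replicate 3. The J protein gene dnj-7 had 112, 108 and 103 CPM in the mutant and 160, 163 and 180 CPM in N2 (log2 fold change −0.64, adjusted p = 0.0025) and belongs to the stable set. The unfolded-protein-response regulator xbp-1 fell by 0.46 (adjusted p = 0.0098) and the lectin chaperone cnx-1 by 0.39 (adjusted p = 0.0057), with calls lost under 3 and 4 alternatives. Of 15 mitochondrial chaperones and proteases 6 fell (40.0%) and 9 were not called, led by hsp-60, the mitochondrial chaperonin, at 622, 602 and 563 CPM in the mutant and 1008, 973 and 859 CPM in N2 (log2 fold change −0.67, adjusted p = 0.012). The 6 falls became 1 with library totals, and 0 to 6 when a library was left out.

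Of 30 proteasome subunit genes 15 fell (50.0%, against 11.5% of all genes) and 15 were not called, with a median of −0.56. The falls depended on single libraries and on the settings. They numbered 23 without N2 replicate 3, at most 3 without any other single library, and 4 with library totals. With the score as a covariate edgeR called 0, with 5 of the 30 at an unadjusted p below 0.05. An ATPase subunit of the 19S particle, rpt-1, had 153, 134 and 114 CPM in hsf-1(sy441), 193, 207 and 149 CPM in the transgene strain, and 243, 249 and 185 CPM in N2. Its mutant libraries lay below all N2 libraries, as they did for 24.3% of all genes, yet the call (log2 fold change −0.76, adjusted p = 0.036) was lost under 9 alternatives. Of the 35 respiratory chain and ATP synthase genes 18 fell (51.4%) and 17 were not called, with a median of −0.26. The falls numbered 2 with library totals, 4 with the score, 19 without N2 replicate 3 and 2 to 7 without any other single library. The ATP synthase subunit gene asb-1 fell by 0.46 (adjusted p = 0.0032), and the complex II gene mev-1 by 0.40 (adjusted p = 0.0054). Neither list had a member in the stable set.

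Few ribosomal protein genes were called, and a single member stood far from the rest. In the cytosolic list 3 of 57 rose (5.3%, against 9.42% of all genes) and the others were not called, and the median was −0.10 (0.10 with library totals). The gene rps-13, which encodes a protein of the small subunit, had 4549, 4438 and 4224 CPM in hsf-1(sy441), 1790, 1679 and 1675 CPM in the transgene strain, and 1684, 1610 and 1828 CPM in N2. It rose 2.58-fold (log2 fold change 1.37, SE 0.06, adjusted p = 4.6e-09) and by 1.27 at 34 °C, with the mutant libraries far above all others. The other 2 that rose, rps-4 and rps-17, did so by 0.33 and 0.27 and lost the call under 5 and 7 alternatives. Among 66 mitochondrial ribosomal protein genes 9 fell (13.6%, near the 11.5% of all genes), of which mrps-16 (log2 fold change −0.43, adjusted p = 0.0017) is in the stable set.

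Several genes of fat breakdown were lower in the mutant, and many of these calls held under the alternatives. In the lipid metabolism list 3 of 47 rose and 15 fell, against 9.42% and 11.5% of all genes, although the list's median was −0.03 (0.16 with library totals). With the score as a covariate 14 fell. The stable set holds 9 members of this list, all falls, beside 143 falls (1.01%) over all genes. The peroxisomal β-oxidation pathway, which shortens the side chains of ascaroside pheromones in C. elegans, has oxidase, hydratase, dehydrogenase and thiolase steps. For each of these 4 steps a gene that fell is given below, and they were put together after the values had been seen. Other acox-1 genes near acox-1.1 went both ways. The log2 fold changes were −1.515 for acox-1.2, −0.961 for acox-1.4 and 0.632 for acox-1.3.

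The oxidase gene acox-1.1 had 120, 123 and 120 CPM in hsf-1(sy441) and 160, 164 and 150 CPM in N2 (log2 fold change −0.39, adjusted p = 0.0036, lost under 1 alternative). Levels of the hydratase gene maoc-1 were 94.2, 106 and 104 CPM in the mutant, 105, 114 and 124 CPM in the transgene strain, and 170, 175 and 181 CPM in N2 (log2 fold change −0.79, SE 0.09, adjusted p = 4.8e-05). The dehydrogenase gene dhs-28 had 289, 298 and 278 CPM in the mutant and 410, 410 and 444 CPM in N2 (log2 fold change −0.55, adjusted p = 5.6e-04). None of these 3 genes had overlapping groups, and for maoc-1 the transgene strain lay near the mutant. The thiolase gene daf-22, whose loss abolishes dauer pheromone, had 129, 138 and 115 CPM in hsf-1(sy441), 170, 156 and 145 CPM in the transgene strain, and 209, 229 and 194 CPM in N2 (log2 fold change −0.73, SE 0.10, adjusted p = 2.8e-04). At 34 °C maoc-1, dhs-28 and daf-22 were again called lower, by −1.11, −0.69 and −0.63, and acox-1.1 was at −0.19 (adjusted p = 0.061).

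Larger ratios at lower levels were those of acs-2 and acdh-2. Acyl-CoA synthetase gene acs-2, a well known fasting-responsive gene, had 2.14, 1.04 and 0.881 CPM in the mutant and 9.63, 21.1 and 9.95 CPM in N2 (log2 fold change −3.31, adjusted p = 6.9e-04). The acyl-CoA dehydrogenase gene acdh-2 had 2.98, 1.87 and 1.03 CPM in the mutant, 13.2, 9.56 and 6.87 CPM in the transgene strain, and 33.4, 29.2 and 18.7 CPM in N2 (log2 fold change −3.78, adjusted p = 2.5e-04), in a locus shared with ins-13. Both genes' groups were far apart. The carnitine palmitoyltransferase genes cpt-1 and cpt-2 fell by 1.13 and 0.52, the synthetase gene acs-7 by 1.23, and the fatty acid binding protein genes lbp-2 and lbp-3 by 0.52 and 0.64. The 3 rises were those of the lipase-like gene lipl-2 (log2 fold change 1.55), the fatty acid binding protein gene lbp-8 (1.27) and sbp-1, none of them in the stable set. The last encodes the SREBP transcription factor of fat synthesis (log2 fold change 1.00, adjusted p = 0.028, lost under 5 alternatives). The glyoxylate cycle gene icl-1, from the list of DAF-16 targets, had 89.1, 79.0 and 42.2 CPM in the mutant and 323, 467 and 263 CPM in N2 (log2 fold change −2.32, adjusted p = 9.0e-04).

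**Figure D4:**
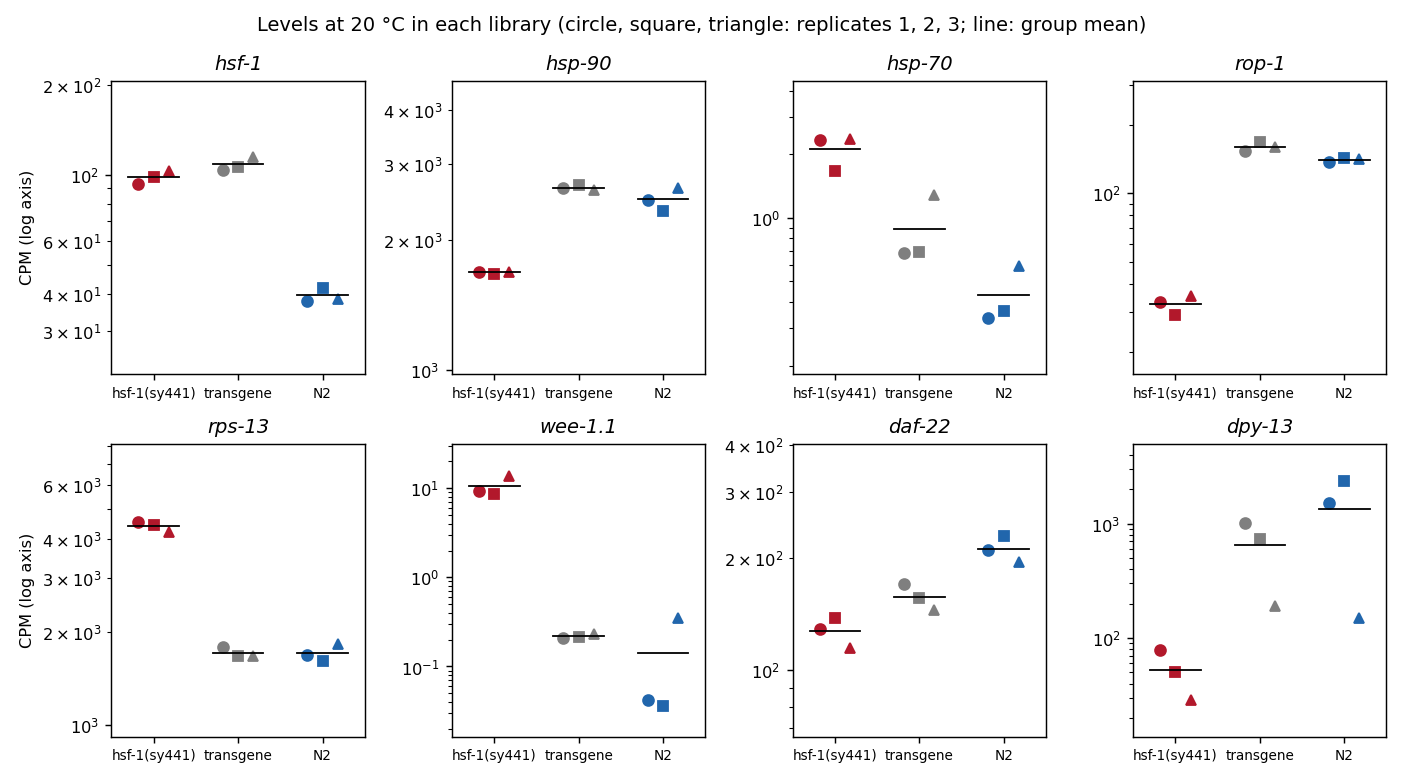
Levels at 20 °C in CPM (log axes) of 8 genes in each library of hsf-1(sy441), the transgene strain and N2, with group means as lines. For rps-13, wee-1.1 and rop-1 the mutant stands apart from both other strains, for hsf-1 the mutant and the transgene strain both lie above N2, and for dpy-13 N2 replicate 3 lies far below the other N2 libraries.

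Cuticle collagen genes changed in both directions, with wide scatter within N2. Of 133 tested (177 listed) 12 rose and 26 fell, with a median of −0.40. The rises, at 9.0%, were near the 9.42% of all genes, and the falls made up 19.5%, against 11.5%. When a library was left out the falls numbered 33 without N2 replicate 3 and 1 to 5 without any other. Their summed level was 8517, 7855 and 5986 CPM in hsf-1(sy441), 20232, 19528 and 9972 CPM in the transgene strain, and 27823, 34260 and 10874 CPM in N2. The collagen gene dpy-13 had 79.2, 50.5 and 28.5 CPM in the mutant, 1009, 732 and 192 CPM in the transgene strain, and 1508, 2353 and 149 CPM in N2 (log2 fold change −4.66, adjusted p = 0.017). Its groups did not overlap, yet N2 replicate 3 lay closer to the mutant libraries than to the other N2 libraries. With the score, which includes these genes, as a covariate, 5 collagens rose and 3 fell. The sole collagen of the stable set was dpy-17, low in all libraries, with 0.612, 0.569 and 0.486 CPM in the mutant and 2.93, 3.21 and 2.13 CPM in N2 (log2 fold change −2.30, adjusted p = 5.2e-04).

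Molting genes behaved likewise. Of 29 tested, 1 rose and 11 fell (37.9%, median −1.09), leaving out a library gave 0 to 15 falls, and with the score as a covariate the list had no called member by edgeR, with 4 at an unadjusted p below 0.05. The molting factor gene mlt-10 had 48.0, 26.2 and 17.2 CPM in the mutant and 572, 913 and 99.8 CPM in N2. Hedgehog-related genes, many of them expressed in epidermis and cuticle-forming cells, had 5 rises and 16 falls among 44 tested (11.4% and 36.4%), and 0 to 22 falls when a library was left out. Their median was −1.80, which was 0.04 with the score, which includes these genes, as a covariate. The largest of these falls was that of grl-5, with 3.59, 2.37 and 3.04 CPM in the mutant and 138, 314 and 12.0 CPM in N2, whereas grl-21 rose to 16.1, 35.9 and 63.7 CPM in the mutant, against 1.67, 0.947 and 5.99 CPM in N2. Both calls were lost under several alternatives, 6 for grl-5 and 7 for grl-21.

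Few heterochronic genes, which time larval stages, were called. Among 15 genes 2 rose and 1 fell (13.3% and 6.7%, against 9.42% and 11.5% of all genes), and with the score as a covariate edgeR called none of them, with 3 at an unadjusted p below 0.05. The early-stage regulator lin-14 had 74.2, 83.2 and 88.7 CPM in the mutant and 59.2, 57.7 and 53.2 CPM in N2 (log2 fold change 0.53, adjusted p = 0.046). Its partner in timing, hbl-1, had 85.5, 90.0 and 85.8 CPM in the mutant and 64.8, 59.1 and 69.6 CPM in N2 (log2 fold change 0.43, adjusted p = 0.02). The larval-to-adult regulator lin-29 fell, with 25.1, 20.4 and 17.1 CPM in the mutant and 52.2, 54.3 and 33.6 CPM in N2 (log2 fold change −1.16, adjusted p = 0.024). None of the 3 is in the stable set. The RNA-binding protein gene lin-28 was not called (0.13, adjusted p = 0.53), nor was the period homologue lin-42 (−1.63, adjusted p = 0.083), which cycles with the molts, nor the timing gene lin-46 (−1.36, adjusted p = 0.13).

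Most called genes of DNA replication and mitosis were lower in the mutant. In the DNA replication list 1 of 39 rose and 18 fell (2.6% and 46.2%, against 9.42% and 11.5% of all genes), with a median of −0.52. The falls numbered 2 with the score as a covariate, and 1 to 15 when a library was left out, fewest without mutant replicate 3 and most without N2 replicate 3. Thymidylate synthase (tyms-1) had 17.9, 14.5 and 12.3 CPM in the mutant and 36.7, 38.2 and 24.1 CPM in N2, and the ribonucleotide reductase subunit gene rnr-1 had 80.4, 78.1 and 51.1 CPM in the mutant and 155, 140 and 126 CPM in N2. Those calls (log2 fold changes −1.15 and −1.01) were each lost under 5 alternatives. The replicative helicase subunit gene mcm-7 fell by 0.64 (adjusted p = 0.0046) and belongs to the stable set, within a locus of 2 genes. Among 48 mitosis genes 1 rose and 15 fell (31.2%), of which 2 to 13 fell when a library was left out and 2 with the score. Among 12 E2F and DREAM genes 2 rose (16.7%). The genes that rose in these lists were cdc-6 (0.23), cya-1 (0.72), lin-37 (0.27) and cdk-4 (0.50). In whole animals fewer cells of a type and less RNA per cell cannot be told apart.

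Defence and detoxification genes included rises and falls. Of 196 innate immunity genes tested (367 listed) 28 rose and 14 fell (14.3% and 7.1%, against 9.42% and 11.5% of all genes), with a median of 0.18. Leaving out a library gave 11 to 36 rises and 3 to 20 falls, most of both without N2 replicate 3, fewest rises without N2 replicate 2 and fewest falls without mutant replicate 3. The C-type lectin genes clec-41, clec-84, clec-12 and clec-233, the lysozyme genes lys-1, lys-2 and lys-7 and the caenacin gene cnc-10 are the rises of the stable set, and clec-160, lys-5 and the saposin-like gene spp-4 its falls. Intestinal lysozyme lys-1 had 692, 703 and 710 CPM in hsf-1(sy441), 576, 591 and 567 CPM in the transgene strain, and 438, 377 and 420 CPM in N2 (log2 fold change 0.77, adjusted p = 0.001). For lys-7, a DAF-16 target, the transgene strain was highest, with 108, 131 and 170 CPM in the mutant, 198, 210 and 216 CPM in the transgene strain, and 36.0, 25.9 and 56.8 CPM in N2 (log2 fold change 1.79, adjusted p = 0.004). All mutant libraries were above all N2 libraries for both genes.

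Among 130 cytochrome P450 and UDP-glucuronosyltransferase genes 15 rose and 16 fell, shares of 11.5% and 12.3% that lie near the 9.42% and 11.5% of all genes, with 5 rises and 4 falls in the stable set. Leaving out a library gave 5 to 21 rises and 5 to 16 falls. The transferase gene ugt-24 had 25.4, 26.2 and 26.1 CPM in the mutant and 6.07, 4.19 and 9.75 CPM in N2 (log2 fold change 1.96, adjusted p = 9.2e-05), while the P450 gene cyp-25A2 fell by 1.04 (adjusted p = 0.0018). Of 58 glutathione S-transferase and oxidative response genes 5 rose and 11 fell (8.6% and 19.0%), and 1 to 7 rose and 5 to 11 fell when a library was left out. The transferase gene gst-24 had 129, 137 and 150 CPM in the mutant, 34.0, 28.0 and 60.9 CPM in the transgene strain, and 18.9, 11.4 and 39.4 CPM in N2, a 5.98-fold rise (adjusted p = 0.0062). The omega-class gene gsto-1 fell, with 17.2, 18.1 and 18.3 CPM in the mutant and 30.9, 29.8 and 33.5 CPM in N2 (log2 fold change −0.81, adjusted p = 3.3e-06). The peroxisomal catalase gene ctl-2 fell by 0.56 (adjusted p = 0.0037). In the dauer and insulin pathway 3 of 49 rose and 3 fell (6.1% each). The rises were those of the TGF-β receptor gene daf-1 (0.40, adjusted p = 0.0075), ins-27 (0.53) and daf-7 (0.29). The falls were those of ins-13 (−2.07), ist-1 (−0.97) and akt-1 (−0.86). Among them daf-1 and ins-13 are in the stable set. The loci of ins-13 and akt-1 are those shared with acdh-2 and rop-1.

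**Figure D5:**
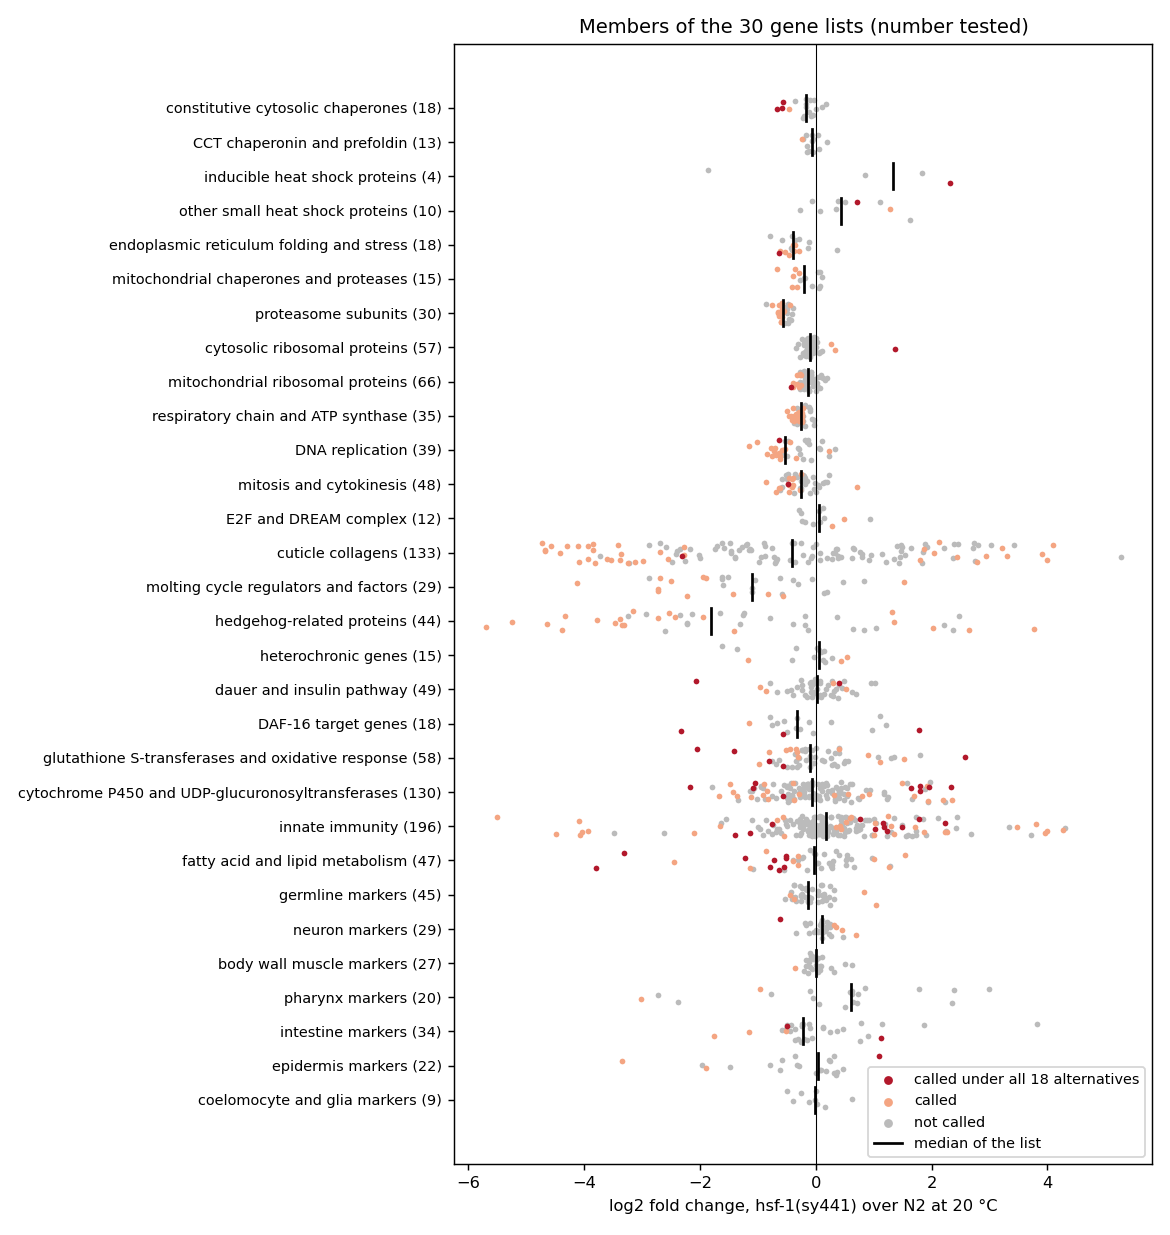
Log2 fold change of hsf-1(sy441) over N2 at 20 °C for the tested members of 30 gene lists, with black bars at the list medians. Dark points belong to the stable set and light orange points are other called genes. The proteasome list has its median at −0.56 and no dark point, while the 9 dark points of the lipid list all lie below 0.

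Calls in the tissue marker lists were set against 9.42% rises and 11.5% falls over all genes. The highest shares were 13.8% rises among neuron markers, and 11.8% falls among intestine and 10.0% among pharynx markers. Of 27 body wall muscle markers 1 fell, of 29 neuron markers 4 rose and 1 fell, of 45 germline markers 2 rose and 2 fell, of 34 intestine markers 1 rose and 4 fell, of 20 pharynx markers 2 fell, of 22 epidermis markers 1 rose and 2 fell. Despite its 2 falls, the pharynx list had a median log2 fold change of 0.60. That median was 1.00 without N2 replicate 3 and −0.03 with the score as a covariate. The 9 coelomocyte and glia markers had adjusted p-values above 0.05. Summed muscle marker levels were 16626 to 18262 CPM in the mutant and 17520 to 19438 CPM in N2, and overlapped. Summed intestine marker levels were 10688 to 12138 CPM in the mutant and 13031 to 14934 CPM in N2, without overlap. For epidermis markers the sums were 3806 to 4940 CPM in the mutant and 5027 to 6108 CPM in N2, also without overlap. The median log2 fold change of that list was 0.04. Summed neuron marker levels were separated the other way, at 2580 to 2666 CPM in the mutant and 2398 to 2498 CPM in N2. In the germline, pharynx and coelomocyte and glia lists the sums overlapped. These sums depend on the TMM scaling. With library totals the median log2 fold change moved from −0.21 to −0.01 for the intestine list and from 0.11 to 0.31 for the neuron list. No list had a tested marker at 0 in all 6 libraries. The part of tissue proportions in the gene differences was not tested.

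The largest rise of a gene reaching 10 CPM was that of wee-1.1, a Wee1-family cell cycle kinase gene. It had 9.38, 8.70 and 13.8 CPM in hsf-1(sy441), 0.211, 0.214 and 0.229 CPM in the transgene strain, and 0.0419, 0.0364 and 0.346 CPM in N2 (log2 fold change 6.31, SE 0.58, adjusted p = 7.8e-06). The N2 libraries held 9 fragments of it in all. C38D9.2 followed, with 18.6, 15.3 and 17.9 CPM in the mutant, 18.7, 12.0 and 13.4 CPM in the transgene strain, and 0.209, 0.364 and 0.247 CPM in N2 (log2 fold change 5.93, adjusted p = 4.6e-09). The transgene strain thus lay with N2 for wee-1.1 and with the mutant for C38D9.2. F08G2.5 and ZK973.8 rose by 3.77 and 3.68, and their transgene strain levels, 4.96 to 6.04 CPM and 1.42 to 2.11 CPM, lay near those of N2, 3.12 to 6.87 CPM and 0.984 to 1.53 CPM. These 4 rises are in the stable set. The remaining 6 of the 10 largest, C01G10.4, col-146, fipr-3, fipr-7, grl-21 and T06E4.5, lost their calls under 5 to 7 alternatives.

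The 10 largest falls were those of lips-6, grl-5, F30A10.2, bah-2, C38C6.3, grl-7, cut-2, ZC123.1, lgc-22 and F33D4.6, with log2 fold changes of −5.75 to −5.14. For grl-7 the values were 14.0, 8.38 and 6.08 CPM in the mutant and 380, 656 and 44.4 CPM in N2. In all 10 genes N2 replicate 3 was the lowest N2 library, and each lost its call under 5 to 10 alternatives, the score among them. Falls with tight replicates had other members, named here after their values had been seen. The Ro60 homologue gene rop-1, whose protein binds noncoding Y RNA, had 33.1, 29.1 and 35.3 CPM in the mutant, 153, 168 and 161 CPM in the transgene strain, and 137, 143 and 142 CPM in N2 (log2 fold change −2.12, SE 0.09, adjusted p = 4.6e-09), in a locus shared with akt-1. The mutant alone was low. At 34 °C the contrast was −2.11.

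Further falls of the stable set, also named after their values were seen, include lysosomal and secreted protease genes. The cathepsin A homologues ctsa-4.1 and ctsa-4.2 fell by 1.42 and 1.10 on the log2 scale, the aspartic protease genes hrg-7 and asp-12, the first of them a secreted heme signal, by 1.25 and 2.88. The lipid-binding protein gene far-6 fell by 1.48, the repressor of lysosomal lipases mxl-3 by 1.53 and the coactivator gene mbf-1 by 0.70. In asp-12 the N2 libraries spread from 82.1 to 177 CPM while the mutant had 12.5 to 19.6 CPM. For tag-273 the transgene strain, at 66.8 to 75.1 CPM, lay nearer the mutant at 55.3 to 60.6 CPM than N2 at 142 to 171 CPM. Rises chosen in the same way are Y119D3B.12 and Y38E10A.14, at 149 to 151 and 180 to 207 CPM in the mutant, 35.4 to 42.5 and 42.5 to 51.5 CPM in the transgene strain, and 35.3 to 40.4 and 43.2 to 52.7 CPM in N2. For F33H2.6 the mutant and the transgene strain, at 31.5 to 34.6 and 43.8 to 51.5 CPM, were both above N2 at 3.60 to 4.26 CPM.

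Differences at 20 °C recurred in the libraries at 34 °C, which are other libraries of the same strains. The labels do not say whether same-numbered libraries of both temperatures came from the same culture. Replicate 3 had the lowest cuticle and molting score in every group at either temperature. The part that shared cultures or shared timing play in the recurrence was not tested. At 34 °C, 14.8% of all genes tested were called up and 14.2% down. Of the 1340 rises 800 (59.7%) were also called up after heat shock and 9 down, and of the 1629 falls 972 (59.7%) were called down and 5 up. These shared genes make up 37.9% of the rises and 48.3% of the falls at 34 °C. In the stable set 363 of the 452 rises (80.3%) and 120 of the 143 falls (83.9%) were called the same way at 34 °C, and 1 and 0 the opposite way. The stable rises include 26 genes of the stretch around hsf-1. By chromosome, 5.61% of tested X-linked genes rose, against 8.94% to 11.3% on the autosomes, while the share that fell was 11.0% to 12.0% on every chromosome.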

How the data were processed

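The authors aligned reads with TopHat2 and quantified them with Cuffdiff on the ce10 build, per the submitters' processing notes; the sources used here give no versions or settings. The deposited read group table holds expected counts (raw fragments per gene and replicate), per the file headers, and 92.4% of these values were whole (tolerance 1e-06). The deposited FPKM values of the authors served an alternative test only. From the authors' deposited table of comparisons the log2 fold changes, p-values and q-values served as a cross-check of the number of calls. Replicates 0 to 2 of that table were taken as replicates 1 to 3 of the labels. Of 20389 genes, 97.5% matched a gene name by identifier. In 114 genes Cuffdiff marked an estimate as failed; they hold 6.11% to 7.75% of a library's fragments and were not tested.

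Counts were rounded and tested with edgeR 4.0.16 (R 4.3.3): TMM factors, filterByExpr over the 6 groups, and the robust quasi-likelihood test on all 18 libraries (16.1 to 34.7 M fragments) with 1 mean per group, Benjamini-Hochberg adjusted over 14219 genes. All CPM are TMM-scaled. The biological coefficient of variation was 25.3%. Alternatives used RLE, upper-quartile or no factors, other filters, DESeq2 1.42.0, limma 3.58.1 on log2(FPKM + 0.1 or 1), the 6 libraries alone, single-gene loci, a replicate block, each library left out, and, added after the data were seen, the cuticle and molting score as a covariate. The fit was tested on simulated data.

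Named genes are hsf-1, the 10 largest rises and 10 largest falls among called genes that reach 10 CPM in the higher group with separated libraries and no failed estimate, up to 4 called members of each list with the largest change, and the chaperone, heat shock protein and heterochronic members. Others were named after their values were seen, as members of the stable set or of the stretch around hsf-1 or to illustrate a list. Members and gene lists were chosen with earlier results of these data known. Same-numbered replicates were not taken as pairs at 20 °C: the correlations of their deviations were 0.41, −0.06 and 0.22.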

Additional observations from a re-analysis of the deposited data

Results flagged for a closer look

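For 8 of the genes examined singly, of which dpy-17 and Y17G7B.21 were chosen after their values had been seen, the difference between hsf-1(sy441) and N2 itself differed between temperatures, by a test of the interaction (34 °C minus 20 °C, edgeR's quasi-likelihood test, adjusted p of 1.2e-10 to 0.014 over all genes). The interaction on the log2 scale was −6.49 for hsp-70, −3.29 for hsp-110, −2.24 for dnj-13, −1.31 for unc-23 (a BAG-family cochaperone), −1.04 for hsp-90 and −0.84 for hsp-1, so the mutant stood lower relative to N2 after heat shock. It was 2.58 for the collagen gene dpy-17, whose difference was 0.27 at 34 °C and −2.30 at 20 °C. It was 0.69 for Y17G7B.21, whose difference was 1.73 at 34 °C and 1.04 at 20 °C. No explanation of these differences was tested.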

How the results depend on the processing

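At 20 °C the 2969 calls became 1596 and 1567 with limma on log2(FPKM + 0.1) and log2(FPKM + 1), 1207 with the cuticle and molting score as a covariate, and 878 to 3415 when a library was left out (878 without mutant replicate 3, 1243 without mutant replicate 2, 1687 without mutant replicate 1, 1042, 970 and 3415 without N2 replicates 1, 2 and 3). With the replicate block the count was 5181, although same-numbered replicates were not taken as pairs at 20 °C. The cause of these changes was not tested. The other counts lay between 2247 and 4391. At 34 °C the 4124 calls became 971 with the 6 libraries alone and 2319 to 5286 without a library. With the replicate block they became 6174. The deviations of same-numbered replicates had correlations of 0.28, 0.26 and 0.36 at 34 °C. Mutant replicate 2 was closer to N2 replicate 1, at 0.36, than to N2 replicate 2, at 0.26, so these correlations do not establish pairs. They cover the mutant and N2 only. Replicate 3 had the lowest cuticle and molting score and the highest TMM factor in every group. With the block at 20 °C, 1339 of the 1340 rises and 1627 of the 1629 falls kept their calls. What the replicate number stands for was not tested. The change of hsf-1 kept its direction and its call under all 18 alternatives (1.23 to 1.51). Over 249 single genes, 3727 of 4396 values kept both, 640 lost the call, 29 gained it and 0 reversed. Of 540 list medians 92 moved by more than the spread between replicates. edgeR and the authors' deposited table shared 776 rises and 814 falls, with 0 opposite. Levels below about 1 CPM rest on few fragments.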
